A study of Mus musculus with 8 samples.

Results

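The Th2 cytokine locus holds the genes of the signature cytokines of type 2 helper T cells, with a DNA repair gene between them and a motor protein gene at its edge. Its members were chosen by symbol, as *Il4*, *Il13*, *Il5*, *Rad50* and *Kif3a*, which are 5 of the 23284 genes listed. RNA sequencing (RNA-seq) was performed on 8 libraries in 4 groups of 2, namely naive CD4 T cells and effector Th1, Th2 and Th17 cells. All of the cells came from DO11.10 Tg mice, in which a transgenic TCR recognizes an OVA peptide. Naive cells were CD44 low CD62L high CD4 T cells sorted from the spleen and were not cultured. Effector cells were grown for 6 days with OVA peptide and irradiated splenocytes depleted of T cells. The medium of Th1 cells held IL-12 (100 U/ml) and IL-2 (30 U/ml) with an antibody to IL-4 (1 μg/ml). That of Th2 cells held IL-4 (100 U/ml) and IL-2 (30 U/ml) with an antibody to IFN-γ (10 μg/ml). For Th17 cells, IL-6, IL-1β and IL-23 were used at 10 ng/ml each, and antibodies to IL-4 and to IFN-γ at 10 μg/ml each. Thus Th2 cultures alone received IL-4, which is both an inducer and a product of these cells, and the Th1 and Th17 cultures held an antibody that blocks it. A restimulation before RNA extraction is not given in the sources used here.

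IL-4 drives naive CD4 T cells toward the Th2 fate through STAT6 and the transcription factor GATA3, and it acts on B cells to switch antibody class. IL-13 acts on airway epithelium, smooth muscle and macrophages, and IL-5 supports the growth and survival of eosinophils. The 3 cytokine genes lie close together and are known to be controlled together in Th2 cells, in part by a locus control region within *Rad50*, which itself encodes an ATPase of the MRE11-RAD50-NBN complex that senses DNA breaks. *Kif3a* encodes a motor subunit of kinesin-2, which is known for carrying cargo along cilia and microtubules.

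On chromosome 11 of mm10, the genes came in the order *Kif3a*, *Il4*, *Il13*, *Rad50* and *Il5* within 157.725 kb. *Kif3a* spanned 53567379 to 53604244 on the plus strand, and *Il4* spanned 53612461 to 53618665 on the minus strand. *Il13* spanned 53631323 to 53634702 and *Rad50* spanned 53649519 to 53707319, both on the minus strand, and *Il5* spanned 53720794 to 53725103 on the plus strand. The gaps between neighbors were 8.22, 12.7, 14.8 and 13.5 kb in that order. In GENCODE M21, each cytokine gene had 4 exons in its principal transcript, and *Rad50* had 25. The same annotation draws a form of *Il4* that reaches 1.26 kb into the span given above for *Kif3a*, on the opposite strand. Its own model of *Kif3a* stops short of that form. The annotation also holds the antisense gene *Gm12214* over *Il5* and the small gene *Gm22275* within *Rad50*. Because the methods and the sample labels name different library kits, of which only 1 keeps the strand, fragments from such overlaps cannot be told apart.

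The bases just before the start sites of the cytokine genes are shown so that motifs of factors known to act on this locus can be located. In the RefSeq promoter table (GRCm38.p6), 4 of the 5 genes were found, and *Rad50* was not. The 250 bases before the start are printed 5′ to 3′ along the strand of the gene. They lie at chr11:53618666-53618915 on the minus strand for *Il4*, at chr11:53634703-53634952 on the minus strand for *Il13* and at chr11:53720544-53720793 on the plus strand for *Il5*. Capitals mark GATA or its reverse complement TATC, the core bound by GATA factors, and GGAAA or its reverse complement TTTCC, the core bound by NFAT.
Il4: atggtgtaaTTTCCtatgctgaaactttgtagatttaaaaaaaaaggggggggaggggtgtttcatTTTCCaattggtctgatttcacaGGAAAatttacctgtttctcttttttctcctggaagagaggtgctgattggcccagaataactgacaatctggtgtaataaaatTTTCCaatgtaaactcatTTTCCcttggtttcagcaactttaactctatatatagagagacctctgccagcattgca
Il13: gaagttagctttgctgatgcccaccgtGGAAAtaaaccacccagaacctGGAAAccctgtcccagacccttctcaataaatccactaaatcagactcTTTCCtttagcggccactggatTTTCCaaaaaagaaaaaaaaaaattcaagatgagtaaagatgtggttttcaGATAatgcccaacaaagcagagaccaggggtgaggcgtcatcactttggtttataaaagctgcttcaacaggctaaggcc
Il5: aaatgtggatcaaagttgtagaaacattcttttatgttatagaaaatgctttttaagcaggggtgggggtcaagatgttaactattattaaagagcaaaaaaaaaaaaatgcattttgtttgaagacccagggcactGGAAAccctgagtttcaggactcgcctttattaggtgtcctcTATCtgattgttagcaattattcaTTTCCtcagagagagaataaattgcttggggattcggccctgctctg

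Within these windows, the NFAT core occurred 5 times before *Il4*, 4 times before *Il13* and 2 times before *Il5*. It was found at least once in 55.6% of all 32851 promoters of the same length. A GATA core began 80 bases before the *Il13* start and 71 bases before the *Il5* start, and none lay before the *Il4* start printed here. This core was present in 53.6% of all promoters, and 3 copies preceded another start listed for *Il4* inside the gene. A motif of the type bound by STAT6, TTC and GAA with 4 bases between them, began 167 bases before the *Il4* start, where it overlaps a GGAAA, and it was present in 5.85% of promoters. The *Maf* type motif, TGCTGA or TCAGCA, occurred 3 times before *Il4* and 1 time before *Il13*, against 16.1% of promoters with at least 1 copy. The AP-1 motif TGANTCA, present in 6.75% of promoters, was in none of the 5 windows of these genes. The windows before *Il4*, *Il13* and *Il5* held 37.6%, 43.2% and 37.6% of G and C with 0, 3 and 2 CpG dinucleotides. The window before *Kif3a* held 58.8% with 15 CpG, beside medians of 52.4% and 6 over all promoters. These matches describe letters only, and no binding was measured.

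The libraries carried an estimated 14463466 to 21058286 fragments each, as derived from the deposited confidence intervals. FPKM is the number of fragments of a gene scaled by the length of its transcript and by the depth of the library, so that levels of different genes can be set side by side. The markers of each subset matched the labels. *Ifng*, the Th1 cytokine, was at 802 and 614 FPKM in the Th1 libraries and at most 2.19 in any other library. *Il17a* was at 347 and 335 FPKM in the Th17 libraries and at most 0.711 elsewhere, and *Gata3* was at 127 and 133 FPKM in the Th2 libraries. The 5 CD4 T cell markers summed to 1037 to 1630 FPKM in every library, with *Cd4* itself between 187 and 373 FPKM.

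All 5 genes were higher in mean level in Th2 cells than in every other group. Against naive cells, 5 of 5 were called higher in Th2 cells, where 31.8% of the 11198 genes tested were called higher and 38.7% lower (limma, adjusted p under 0.05). Against Th1 cells the count was 5 of 5, where 16.9% of all genes tested were higher and 27.4% lower. Against Th17 cells it was 5 of 5, where 12% of all genes tested were higher and 31.7% lower. Their median difference from Th1 cells was 3.48 on the log2(FPKM + 1) scale, and from Th17 cells 3.30, whereas the medians of all genes tested were -0.11 and -0.18. Of these genes only *Il5* passed the filter on low values through its level in Th2 cells alone.

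In Th1 cells, 3 of the 5 genes (*Il4*, *Rad50* and *Kif3a*) were called higher than in naive cells, where 33.8% of all genes tested were higher and 33.5% lower. In Th17 cells, 4 of 5, all but *Il5*, were called higher than in naive cells, where 37.5% were higher and 29.8% lower. Between the 2 subsets, *Il4*, *Il13* and *Kif3a*, 3 of 5, were called higher in Th17 than in Th1 cells, where 16% were higher and 9.17% lower. No member was called lower by limma in any of the 6 comparisons, and the count was also 0 at an unadjusted p under 0.05 and by voom on the implied fragments. In bulk RNA, fewer cells that express a gene and less RNA per cell cannot be told apart.

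**Figure D1:**
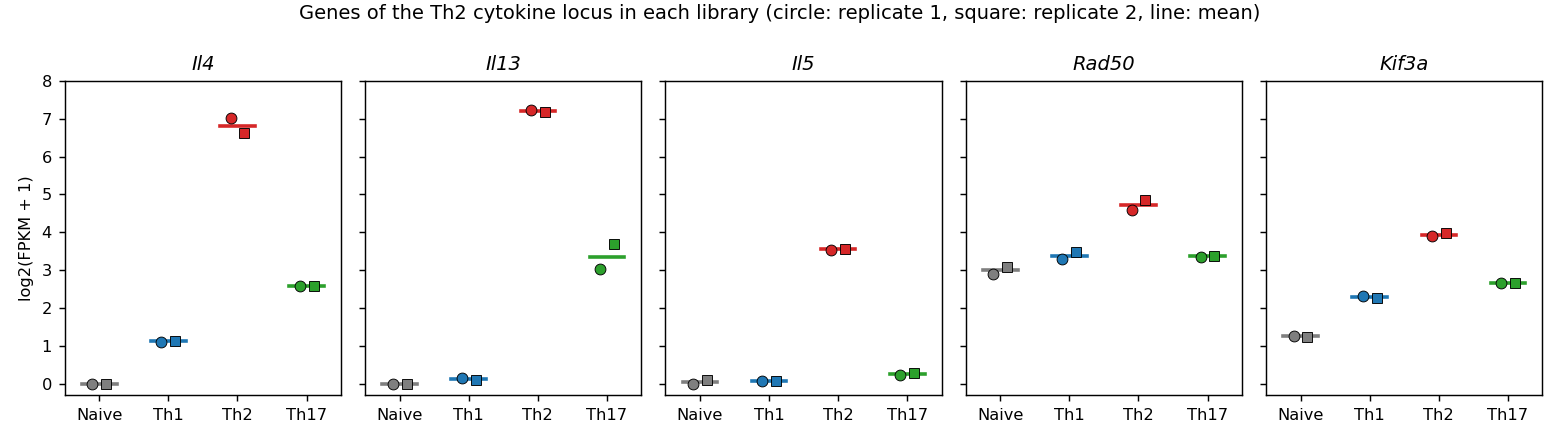
Level of each of the 5 genes in the 8 libraries. The vertical axis is log2(FPKM + 1), the horizontal axis is the group, circles and squares are replicates 1 and 2, and lines are group means. The mean of Th2 cells is the highest for each gene, and that of Th17 cells lies above those of Th1 and naive cells for *Il4* and *Il13*.

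*Il4* was listed at 0 in both naive libraries, stood at 1.14 and 1.196 FPKM in Th1 cells, at 5.003 in each Th17 library, and at 129 and 97.6 in Th2 cells. The group means rose in the order naive, Th1, Th17 and Th2. Every step of this order passed the test. On the log2(FPKM + 1) scale, Th1 cells exceeded naive cells by 1.12 ± 0.13 (SE, limma, adjusted p = 0.000306). Th17 cells exceeded Th1 cells by 1.47 ± 0.13 (limma, adjusted p = 0.000373), and Th2 cells exceeded Th17 cells by 4.24 ± 0.13 (limma, adjusted p = 4.67e-06). A pseudocount understates changes of low genes, so ratios of the implied fragments per depth are also given. By that measure, *Il4* was 107-fold higher in Th2 than in Th1 cells (exact 95% interval 72.8 to 164, 2689 against 26 fragments) and 24.8-fold higher than in Th17 cells (20.4 to 30.5). These intervals cover counting error only.

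*Il13* was also listed at 0 in both naive libraries and was barely present in Th1 cells, at 0.0974 and 0.0682 FPKM. It stood at 7.09 and 11.98 FPKM in Th17 cells and at 150 and 143 in Th2 cells. The Th1 values rest on 5 implied fragments in all. Th1 and naive cells differed by 0.11 on the log2(FPKM + 1) scale, with a 95% interval of -0.37 to 0.60, which does not separate them at this depth. With a pseudocount of 0.1 in place of 1, this difference was 0.87 and was called (limma, adjusted p = 0.0174). Th17 cells exceeded naive cells by 3.36 ± 0.20 (limma, adjusted p = 8.98e-06), and Th1 cells by 3.24 ± 0.20 (limma, adjusted p = 7.56e-05). Th2 cells exceeded Th17 cells by a further 3.85 ± 0.20 (limma, adjusted p = 3.25e-05), or 16.5-fold in implied fragments (15.1 to 18.0). Relative to Th1 cells the ratio was 1842, with a wide interval of 789 to 5674.

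The ratio of the 2 neighboring cytokine genes was lower in Th1 than in Th2 and Th17 libraries. Within a library, the FPKM of *Il13* was 1.16 and 1.46 times that of *Il4* in Th2 cells and 1.42 and 2.396 times in Th17 cells. In Th1 cells it was 0.0854 and 0.0571 times that of *Il4*, resting on 3 and 2 implied fragments of *Il13*. Thus *Il13* was above *Il4* in all 4 Th2 and Th17 libraries and below it in both Th1 libraries. The deposited confidence intervals of the 2 genes did not overlap in either Th2 library, where they were 146 to 155 FPKM for *Il13* against 123 to 135 for *Il4* in replicate 1, and 139 to 147 against 91.6 to 103 in replicate 2. In replicate 1 of Th17 cells they did overlap, with 6.15 to 8.03 for *Il13* and 3.72 to 6.29 for *Il4*. In replicate 2 of Th17 cells they did not, with 10.6 to 13.4 for *Il13* and 3.48 to 6.52 for *Il4*. The ratio itself was not tested.

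*Il5* was the lowest of the 3 cytokine genes in Th2 cells, at 10.6 and 10.8 FPKM. It was listed at 0 and stood at 0.0660 FPKM in the naive libraries, at 0.0489 and 0.0514 in Th1 cells, and at 0.163 and 0.218 in Th17 cells. Outside Th2 cells it therefore stayed below 1 FPKM in all 6 libraries, with 2 implied fragments in naive, 4 in Th1 and 14 in Th17 cells. Th2 cells exceeded Th17 cells by 3.30 ± 0.10 on the log2(FPKM + 1) scale (limma, adjusted p = 4.67e-06) and by 59.2-fold in implied fragments (35.1 to 109). The difference of Th1 from naive cells was 0.02 (95% interval -0.22 to 0.27), and that of Th17 from Th1 cells was 0.18 (-0.07 to 0.43). Between Th17 and naive cells it was 0.21 (-0.04 to 0.45), a difference that missed the threshold (limma, adjusted p = 0.12) but passed it with no filter on low values and by voom on the implied fragments. In implied fragments, *Il5* in Th17 cells was 3.77 times its level in Th1 cells (exact 95% interval 1.18 to 15.7) and 5.36 times that in naive cells (1.23 to 48.6). In Th2 cells, *Il4* was 12.1 and 9.05 times and *Il13* was 14.1 and 13.3 times the level of *Il5* in FPKM.

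**Figure D2:**
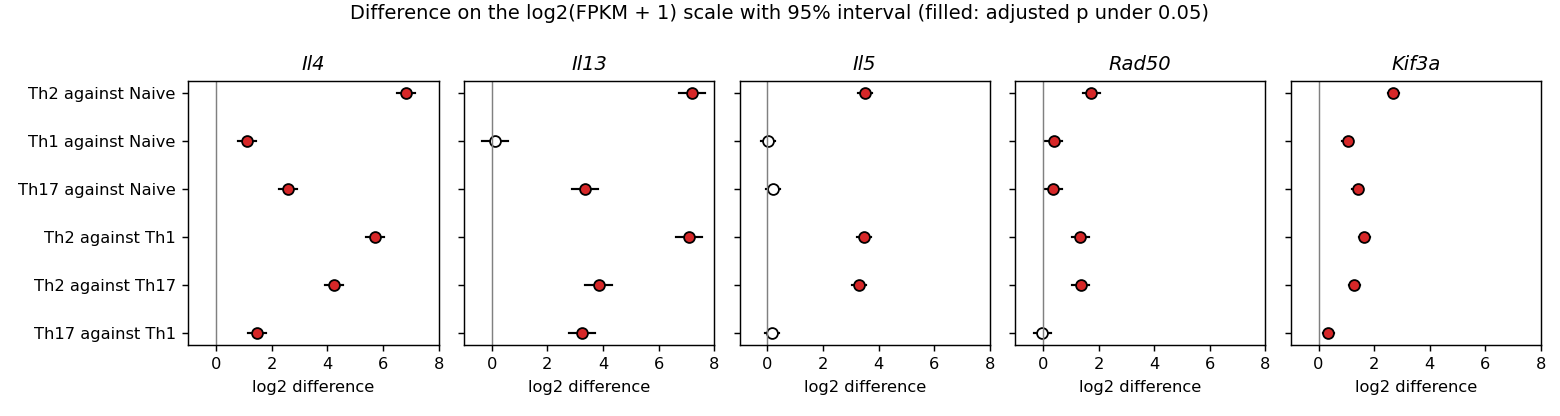
Difference between groups for each of the 5 genes in the 6 comparisons. The horizontal axis is the difference in log2(FPKM + 1), first group minus the second, bars are 95% intervals, and filled points had an adjusted p under 0.05. The 3 comparisons of Th2 cells are filled for each gene, and *Il13* and *Il5* in Th1 against naive cells sit at 0.11 and 0.02.

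*Rad50* was expressed in all of the groups. Its level was 6.42 and 7.54 FPKM in naive cells, 8.73 and 10.2 in Th1 cells, 9.12 and 9.43 in Th17 cells, and 23.3 and 27.8 in Th2 cells. Both Th2 libraries were above all of the rest, while Th1 and Th17 libraries overlapped. Th2 cells exceeded Th1 cells by 1.34 ± 0.13 (limma, adjusted p = 0.000275) and Th17 cells by 1.36 ± 0.13 (limma, adjusted p = 0.000373) on the log2(FPKM + 1) scale. In implied fragments these were ratios of 2.82 (exact 95% interval 2.70 to 2.95) and 2.85 (2.72 to 2.98). Th17 and Th1 cells differed by -0.02, with a 95% interval of -0.33 to 0.28.

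The smaller differences of *Rad50* from naive cells passed the threshold narrowly, and their calls were lost when some single libraries were left out. In Th1 cells the difference was 0.39 ± 0.13 (limma, adjusted p = 0.03) and in Th17 cells 0.37 ± 0.13 (limma, adjusted p = 0.0378). Without replicate 1 of the naive cells these became 0.29 (limma, adjusted p = 0.146) and 0.27 (limma, adjusted p = 0.176), and neither was called. The Th1 difference also lost its call without replicate 2 of the Th1 cells, at 0.29 (limma, adjusted p = 0.164), or without either Th17 library, at 0.39 each. The Th17 difference lost its call without replicate 1 or replicate 2 of the Th17 cells, at 0.39 and 0.35.

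No partner of *Rad50* was called higher in Th2 cells than in both other effector groups. *Mre11a*, the nuclease of the same complex, was at 11.8 and 12.3 FPKM in Th2 cells, between 12.7 and 14.4 in Th1 and Th17 cells, and at 5.50 and 6.88 in naive cells. *Nbn*, the subunit that recruits ATM, lay between 7.49 and 10.2 FPKM in every library. Neither gene was called between Th2 and Th1 or between Th2 and Th17 cells. *Atm*, the kinase activated by the complex, was lower in Th2 than in naive cells (difference of -0.71, limma, adjusted p = 0.00105) and higher than in Th1 cells by 0.50 ± 0.11 (limma, adjusted p = 0.0111). Of these 3 genes, 1 was called higher in Th2 than in Th1 cells and 0 were called by limma between Th2 and Th17 cells. Over all genes tested, 16.9% were higher and 27.4% lower against Th1 cells, and 12% and 31.7% against Th17 cells. The count against Th17 cells was also 0 at an unadjusted p under 0.05 and by voom, and it was 1, *Nbn*, under quantile normalization.

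*Kif3a* was at 1.40 and 1.35 FPKM in naive cells, 3.99 and 3.84 in Th1 cells, 5.30 and 5.26 in Th17 cells, and 13.9 and 14.8 in Th2 cells. The group means stood in the same order as for *Il4*. On the log2(FPKM + 1) scale, Th2 cells exceeded naive cells by 2.69 ± 0.08 (limma, adjusted p = 4.6e-07), Th1 cells by 1.64 ± 0.08 (limma, adjusted p = 1.69e-05) and Th17 cells by 1.29 ± 0.08 (limma, adjusted p = 7.98e-05). In implied fragments the ratios of Th2 cells to these groups were 10.2 (exact 95% interval 9.10 to 11.4), 3.83 (3.59 to 4.08) and 2.80 (2.65 to 2.97). Th1 and Th17 cells were themselves above naive cells, by 1.05 and 1.40. The step from Th1 to Th17 cells was 0.35 ± 0.08 (limma, adjusted p = 0.0223), and it was not called when any 1 of the 4 Th1 and Th17 libraries was left out, at 0.33 to 0.38.

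No other kinesin-2 subunit was called higher in Th2 cells than in both Th1 and Th17 cells. Of the 3 tested, 1 was called higher and 1 lower against Th1 cells, and 0 higher and 2 lower against Th17 cells. The shares over all genes tested were 16.9% higher and 27.4% lower against Th1 cells and 12% and 31.7% against Th17 cells. Counts over 3 genes say little beside such shares. *Kifap3*, the adaptor subunit that joins the motor to its cargo, was at 1.63 and 1.64 FPKM in Th2 cells, 3.66 and 3.37 in Th1 cells and 5.72 and 5.67 in Th17 cells. It was thus lower in Th2 than in Th1 cells (difference of -0.77, limma, adjusted p = 0.000676) and lower than in Th17 cells (difference of -1.34, limma, adjusted p = 8.97e-05), the opposite direction to *Kif3a*. *Kif3b*, the motor subunit that pairs with *Kif3a*, was at 17.4 and 15.8 FPKM in Th2 cells, 11.4 and 11.4 in Th1 cells and 21.7 and 21.1 in Th17 cells. It was higher in Th2 than in Th1 cells by 0.51 (limma, adjusted p = 0.0102) and lower than in Th17 cells (difference of -0.35, limma, adjusted p = 0.0413), the latter call being lost under median scaling, quantile normalization and voom. *Kif3c* was not called in either comparison, and *Kif17* was below the filter. *Rad50* exceeded *Kif3a* 4.58-fold and 5.58-fold in the naive libraries, and 1.67-fold and 1.88-fold in the Th2 libraries.

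**Figure D3:**
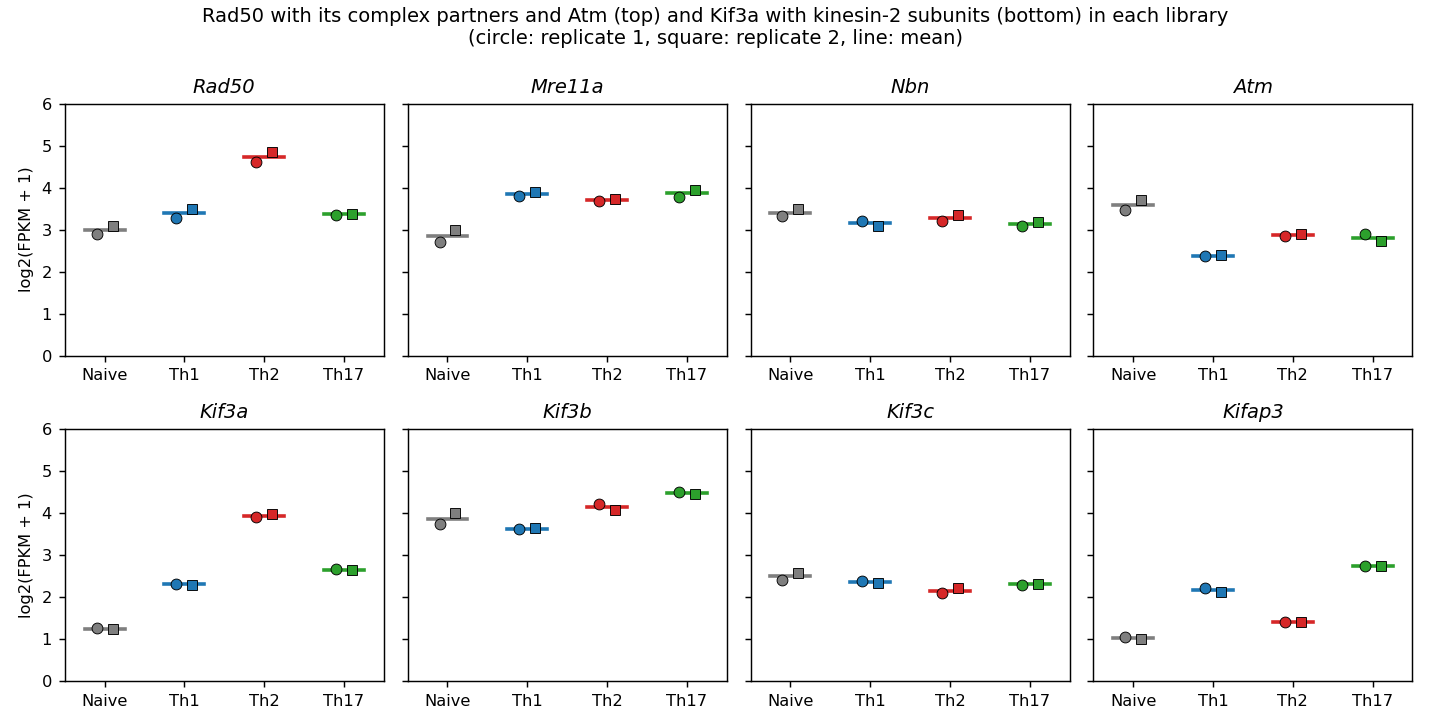
*Rad50* and *Kif3a* beside the genes of their protein complexes, with *Atm*, in the 8 libraries. The vertical axis is log2(FPKM + 1), circles and squares are replicates 1 and 2, and lines are group means. *Rad50* and *Kif3a* peak in Th2 cells, *Mre11a* is at similar levels in the 3 effector groups, and *Kifap3* is lower in Th2 than in Th1 and Th17 cells.

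To see whether the pattern was limited to the 5 genes, the genes within 300 kb of the span were taken. There were 14, of which 8 passed the filter. Against Th1 cells, 4 of the 8 were called higher in Th2 cells and 1 lower, with a median difference of 0.67 beside -0.11 for all genes tested. Against Th17 cells, 5 were called higher and 0 lower by limma, with a median of 0.54 beside -0.18. The count of lower genes was 1 at an unadjusted p under 0.05 and 0 by voom. Against naive cells, 6 were called higher and 2 lower, with a median of 1.02 beside -0.11. Over all genes tested, 16.9% were called higher and 27.4% lower against Th1 cells. The shares were 12% and 31.7% against Th17 cells, and 31.8% and 38.7% against naive cells.

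On the *Kif3a* side, *Hspa4*, *Zcchc10*, *Aff4* and *Sept8* were called higher in Th2 cells than in each of the other groups. *Aff4*, which encodes a scaffold of the super elongation complex, was at 38.6 and 42.7 FPKM in Th2 cells against 7.71 to 9.12 in Th1 and Th17 cells, a difference of 2.24 from Th1 cells (limma, adjusted p = 8.43e-06). *Zcchc10* was at 33.4 and 39.5 FPKM in Th2 cells against 5.99 to 9.46 in Th1 and Th17 cells, a difference of 2.27 (limma, adjusted p = 5.38e-05). In the same comparison *Rad50* differed by 1.34 and *Kif3a* by 1.64. *Sept8*, a septin gene and the nearest tested gene beyond *Kif3a*, was at 13.6 and 13.9 FPKM in Th2 cells, 7.51 and 8.20 in Th17 cells and 3.06 and 2.92 in Th1 cells. *Hspa4*, which encodes a chaperone of the heat shock protein family, differed by 1.12 from Th1 and 0.96 from Th17 cells. *Uqcrq*, a subunit of respiratory complex III that lies among them, was not called against Th1 or Th17 cells, at -0.32 and -0.38. It was called lower in both when the replicate number entered as a block or without replicate 1 of the Th2 cells, which made the counts of lower genes 2 against Th1 and 1 against Th17 cells.

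On the *Il5* side, the nearest tested gene was *Irf1*, which encodes a transcription factor induced by interferons. It was at 25.1 and 25.5 FPKM in Th2 cells, 75.9 and 88.8 in Th1 cells and 18.9 and 20.7 in Th17 cells. Its level was highest in naive cells, at 208 and 233 FPKM. It was lower in Th2 than in Th1 cells (difference of -1.66, limma, adjusted p = 6.17e-05), and its difference of 0.34 from Th17 cells (limma, adjusted p = 0.0474) was lost by voom. *Slc22a5* and *Slc22a21*, transporters of carnitine and related compounds, were not called against Th1 or Th17 cells. The split by side was noticed in these data and was not tested.

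**Figure D4:**
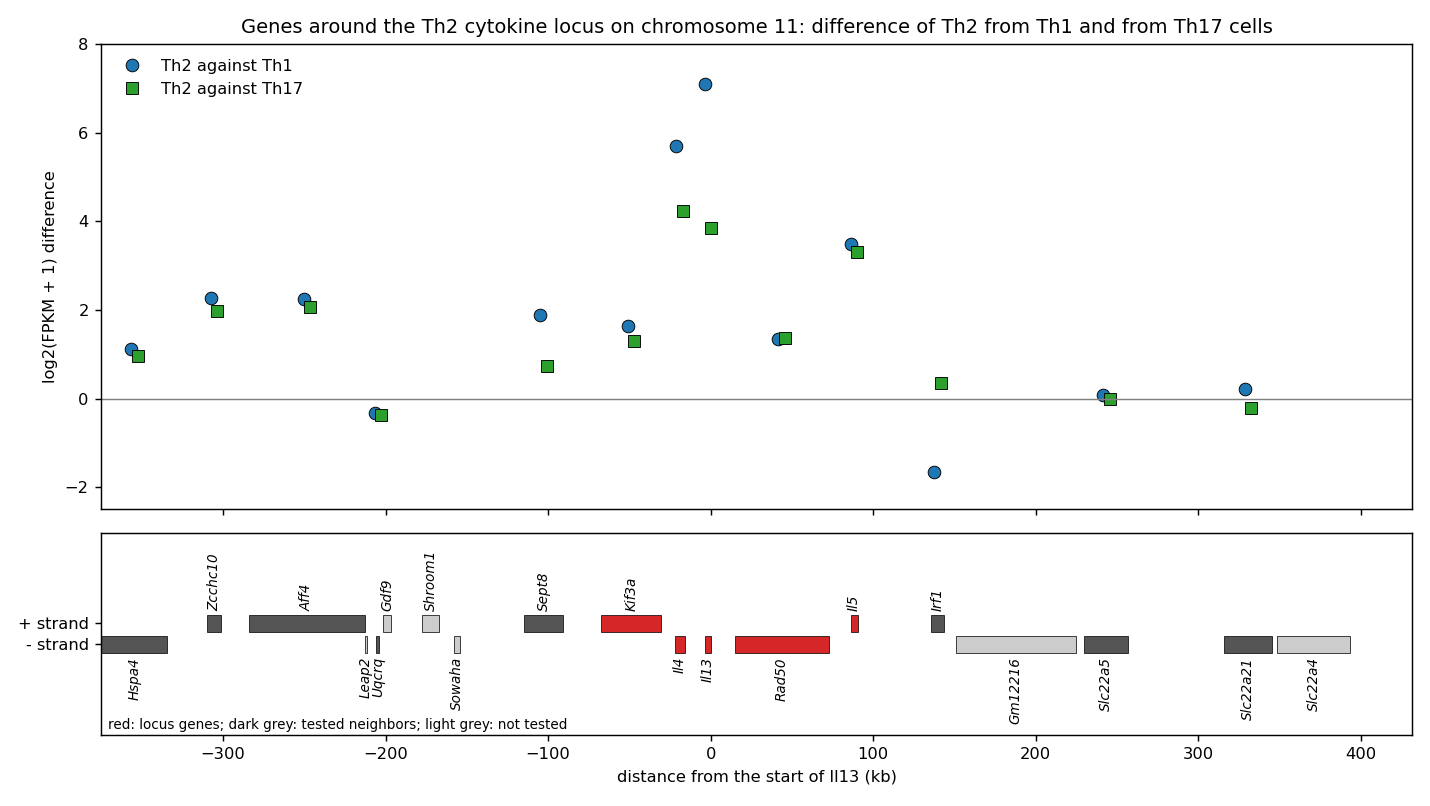
Difference of Th2 from Th1 cells and from Th17 cells for the tested genes along chromosome 11. The upper axis is the difference in log2(FPKM + 1), the horizontal axis is the distance in kb from the start of *Il13* with points of the 2 comparisons set slightly apart, and boxes show each gene on its strand. *Il4* and *Il13* are highest, *Aff4* and *Zcchc10* on the *Kif3a* side lie at 1.98 to 2.27, and *Irf1* beyond *Il5* lies at -1.66 against Th1 cells.

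Among 12 genes for the receptors of IL-4, IL-13 and IL-5 and their signaling, 9 were tested. Against Th1 cells, 5 of the 9 were called higher and 1 lower in Th2 cells, where 16.9% of all genes tested were higher and 27.4% lower, and the median difference was 0.64 beside -0.11 for all genes. Against Th17 cells, 1 of the 9 was called higher and 1 lower, where the shares over all genes tested were 12% and 31.7%, with a median of -0.08 beside -0.18. *Il4ra*, the chain shared by the IL-4 and IL-13 receptors, was at 296 and 258 FPKM in Th2 cells, 161 and 179 in Th17 cells, and 88.0 and 99.4 in Th1 cells. It was called higher in Th2 cells than in both, by 1.55 (limma, adjusted p = 0.000129) and 0.70 (limma, adjusted p = 0.00508). *Jak3* and *Stat5b* were called higher than in Th1 cells, by 0.86 and 0.64, and against Th17 cells, at 0.46 and 0.40, they were called under median scaling but not as deposited. *Jak1*, a kinase of these receptors and the gene called lower against Th1 cells, lost that call under median scaling, quantile normalization and voom. *Stat6*, the factor that IL-4 activates, was at 52.8 and 58.2 FPKM in Th2 cells, 38.4 and 45.2 in Th1 cells and 47.4 and 58.4 in Th17 cells. Its difference of 0.40 from Th1 cells missed the threshold (limma, adjusted p = 0.0631) and passed it under median scaling, quantile normalization, voom and the replicate block. *Il5ra*, the IL-5 receptor chain, and *Il13ra2*, a decoy receptor of IL-13, stayed below 1 FPKM in every library.

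Of 15 genes whose products are known to activate the locus, 14 were tested. Against Th1 cells, 8 were called higher and 3 lower in Th2 cells, and against Th17 cells 7 were called higher and 2 lower. The shares over all genes tested were 16.9% higher and 27.4% lower against Th1 cells and 12% and 31.7% against Th17 cells. The medians were 0.80 and 0.35, beside -0.11 and -0.18 for all genes. *Gata3*, the master regulator of Th2 cells, stood at 127 and 133 FPKM in Th2 cells and between 5.46 and 20.4 in all other libraries, with its naive level above those of Th1 and Th17 cells. Th2 cells exceeded Th1 cells by 4.11 ± 0.22 (limma, adjusted p = 2e-05) and Th17 cells by 3.97 ± 0.22 (limma, adjusted p = 3.98e-05).

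*Maf*, which activates *Il4* in particular, was at 95.5 and 104 FPKM in Th2 cells, 27.5 and 20.5 in Th1 cells and 8.61 and 6.54 in Th17 cells, so that its order in Th1 and Th17 cells was opposite to that of *Il4*. *Batf*, an AP-1 family factor, was at 356 and 354 FPKM in Th2 cells, 89.9 and 99.01 in Th17 cells and 39.9 and 42.4 in Th1 cells, the same order as *Il4*. *Gfi1*, *Nfil3* and *Rbpj* were also called higher in Th2 cells than in both other subsets. *Irf4* and *Junb* were called higher than in Th1 cells, by 0.70 and 0.97, but not than in Th17 cells, where the differences were 0.16 and -0.29. *Nfatc2*, an NFAT family member, was lower in Th2 than in Th1 cells (difference of -1.27, limma, adjusted p = 0.00132) and lower than in Th17 cells (difference of -0.97, limma, adjusted p = 0.00487). RNA levels do not show the activity of such factors.

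All 10 genes known to restrain the locus were tested, and 2 were called higher and 4 lower in Th2 cells against Th1 cells, with the same counts against Th17 cells. The shares over all genes tested were 16.9% and 27.4% against Th1 cells and 12% and 31.7% against Th17 cells, so the counts say little about this list. The medians were -0.22 and 0.09, beside -0.11 and -0.18 for all genes. *Tbx21*, the Th1 master regulator, was at 45.1 and 50.7 FPKM in Th1 cells and between 0.260 and 1.66 in all other libraries. It was lower in Th2 than in Th1 cells (difference of -4.67, limma, adjusted p = 2.23e-06), whereas its call against Th17 cells, at -0.46, was lost under median scaling, quantile normalization and voom. *Hlx*, a homeobox factor that acts with T-bet, was at 5.14 and 5.50 FPKM in Th2 cells against 15.4 to 20.8 in Th1 and Th17 cells, and *Mbd2*, a reader of DNA methylation, was at 51.0 and 54.8 against 77.3 to 93.1. Both were called lower in Th2 cells than in each of the other subsets, as was *Bcl6*, a repressor known from follicular helper T cells. *Runx1* was called higher than in both, and *Runx3*, a partner of T-bet, was called in neither, at -0.12 and 0.20.

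**Figure D5:**
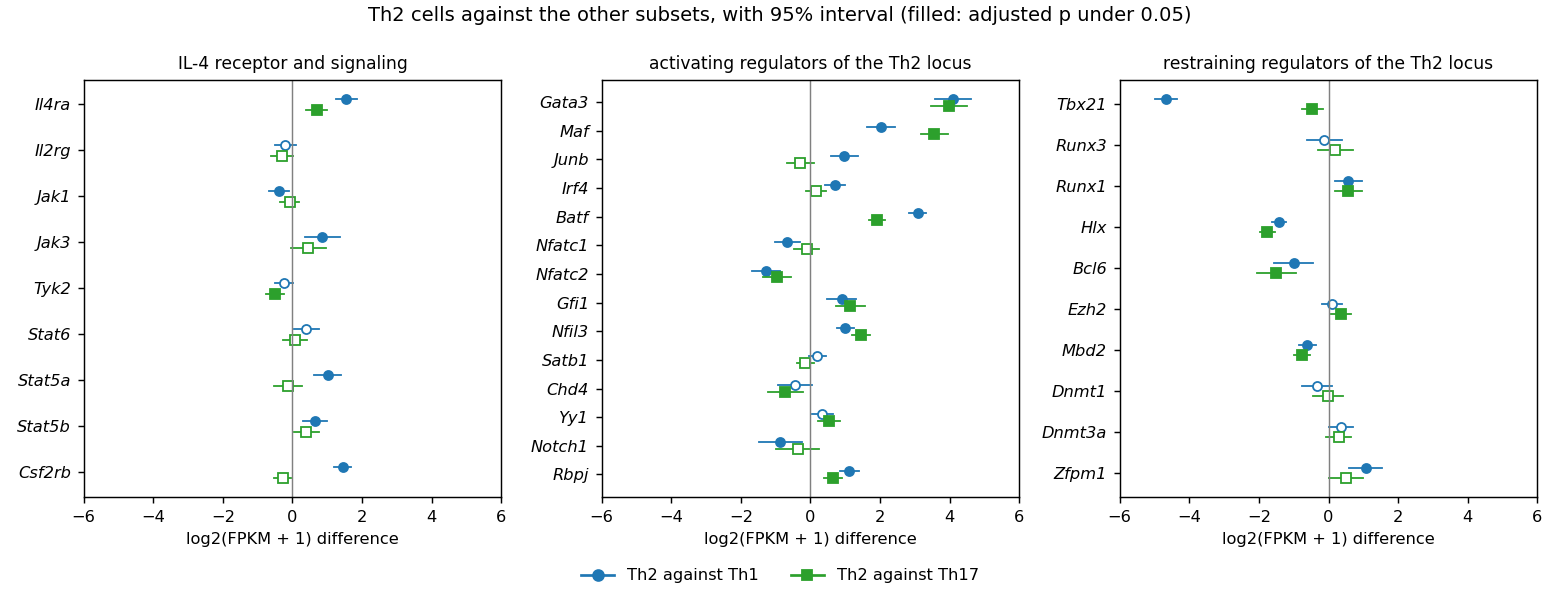
Difference of Th2 cells from Th1 cells (circles) and from Th17 cells (squares) for the tested genes of 3 lists. The horizontal axis is the difference in log2(FPKM + 1), bars are 95% intervals and filled symbols had an adjusted p under 0.05. *Gata3*, *Maf* and *Batf* lie far to the right in both comparisons, *Tbx21* lies at -4.67 against Th1 cells, and the receptor and signaling genes lie between -0.50 and 0.70 against Th17 cells.

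Cytokine genes outside the locus that type 2 cells can express did not share one pattern. Of 9, 4 were tested, and in Th2 cells 3 were called higher and 1 lower than in Th1 cells, while 1 was called higher and 2 lower than in Th17 cells. Over all genes tested, 16.9% were higher and 27.4% lower against Th1 cells, and 12% and 31.7% against Th17 cells. Counts over 4 genes say little beside such shares. *Il10* was at 160 and 116 FPKM in Th2 cells, 43.7 and 38.1 in Th1 cells and at most 0.901 in Th17 cells. *Il24*, an IL-10 family cytokine, was at 418 and 374 FPKM in Th2 cells and 333 and 335 in Th17 cells. Its difference from Th17 cells of 0.24 was not called as deposited, but it was called under median scaling. *Il21* was lower in Th2 than in Th17 cells (difference of -0.99, limma, adjusted p = 0.00181). *Il9* and *Il3* were listed at 0 in both Th2 libraries.

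Over the 8 libraries, the genes whose log2(FPKM + 1) values were most alike those of each member were found by Pearson correlation, as a description over points that fall in 4 groups of 2 and share the depth of their library. For *Il4* they were *Kremen2* (r = 0.998), *Papss2*, *Stbd1*, *Wisp3* and *Adk*, and for *Il13* they were *Fn1* (r = 0.999), *Cd83*, *Arg1*, *Hap1* and *Epcam*. *Kremen2* was at 58.0 and 50.4 FPKM in Th2 cells, 5.04 and 4.81 in Th17 cells and 0.901 and 1.305 in Th1 cells. For *Il5* they were *Rnf152* (r = 1.00), *Stfa2l1*, *Mmp7*, *Htr1b* and *Nts*. *Htr1b*, a serotonin receptor gene, was at 43.5 and 51.5 FPKM in Th2 cells and at most 0.324 in all other libraries. All 5 genes alike *Il5* passed the filter through their level in Th2 cells alone, as *Il5* did, so their high r carries little information. For *Rad50* they were *Sh2b1* (r = 0.995), *Scaf11*, *Ppp2r3a*, *Pla2g4a* and *Gdap10*, and for *Kif3a* they were *Cyp4f39* (r = 0.998), *Entpd4*, *1700025K23Rik*, *Mllt4* and *C3*. The filter was likewise passed through Th2 levels alone by *Papss2* and *Stbd1* alike *Il4*, and by *Fn1*, *Arg1*, *Hap1* and *Epcam* alike *Il13*. The same held for *Ppp2r3a*, *Pla2g4a* and *Gdap10* alike *Rad50* and for *Cyp4f39* alike *Kif3a*. The r of these genes carries little information as well. Among the 5 members, r ranged from 0.864 for *Il5* and *Kif3a* to 0.978 for *Il4* and *Il13*.

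Mast cells, basophils and eosinophils can also express *Il4*, *Il13* or *Il5*. The 8 mast cell and basophil markers summed to 0.695 and 0.898 FPKM in the Th2 libraries and to 0.277 to 0.960 in the others. None exceeded 0.856 FPKM, the level of *Hdc* in replicate 1 of the Th17 cells. *Mcpt8* was at 0.0517 and 0.0523 FPKM in Th2 cells and at most 0.0490 elsewhere. *Cpa3* was at 0.0262 and 0.239 in Th2 cells and at most 0.105 elsewhere. *Ms4a2* was at 0.0412 in replicate 2 of the Th2 cells and at 0 elsewhere. *Prss34* and *Cma1* were at 0 in both Th2 libraries, and *Fcer1a* and *Tpsb2* were at 0 in all 8 libraries. Of the 4 eosinophil markers 3 were in the tables, with sums of 0.155 and 0.0133 FPKM in Th2 cells and 0 to 0.159 elsewhere. The part of these cells in the results was not tested. Of the 5 myeloid markers 4 were in the tables, with sums of 23.2 and 14.9 FPKM in Th2 cells, 16.5 and 16.6 in Th17 cells, 7.92 and 8.65 in Th1 cells and 11.9 and 11.2 in naive cells, and their part in the results was not tested. The 4 B cell markers summed to 2.15 to 11.4 FPKM, the 4 dendritic cell markers to 0.126 to 2.29 and the 3 NK and NKT cell markers to 0.184 to 0.631. The 3 markers of innate lymphoid cells of type 2 summed to 6.83 and 8.76 FPKM in Th2 cells and to 1.46 to 14.2 in the others. Outside Th2 cells most of that sum came from *Rora*. *Il1rl1*, a chain of the IL-33 receptor that Th2 cells are also known to express, was at 4.41 and 5.34 FPKM in Th2 cells, 1.95 and 2.90 in Th1 cells and 0.488 or less in Th17 and naive cells. It was called higher in Th2 cells than in naive cells by 2.18 (limma, adjusted p = 3.5e-05), than in Th1 cells by 0.79 (limma, adjusted p = 0.0108) and than in Th17 cells by 2.08 (limma, adjusted p = 0.000245), and its part in the results was not tested. Of the CD8 T cell markers, *Cd8b1* was at 90.5 and 52.8 FPKM in naive cells and 8.77 to 12.9 in effector cells, and *Cd8a* was at 2.94 and 1.77 in naive cells and at most 0.268 in effector cells. *Cd8b1* was called lower than in naive cells in Th2, Th1 and Th17 cells, at -2.57, -2.71 and -2.53, and its part in the comparisons with naive cells was not tested.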

How the data were processed

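RNA-seq data of 8 libraries were used. The authors aligned 50 bp reads to mm10 with TopHat (1.3.2) and Bowtie (0.12.8), computed FPKM with Cufflinks (2.0.2) and deposited FPKM with a confidence interval per gene and library. The annotation is not given in the sources used here. Rows sharing a symbol were summed. Values were tested as log2(FPKM + 1) with a pseudocount of 1 for the 11198 genes with a mean of at least 1 FPKM over the 8 libraries. A model of 4 group means was fitted with limma (3.58.1, R 4.3.3, eBayes with trend). Tests were two-sided with Benjamini-Hochberg adjustment over all genes tested. With 2 libraries against 2, an exact permutation test cannot go below p = 0.333, so none was used. The labels do not say whether the replicates were separate cultures, so p-values measure the spread between these libraries, which may be technical.

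Fragments were estimated by dividing FPKM by the distance from FPKM to the upper bound of its interval over 2, and squaring the result. This assumes counting error, and 69.8% of estimates from 0.5 to 200 were whole within 0.05. Ratios and intervals from these estimates cover counting error only. The members, lists and tests were chosen with earlier results of these data known. Named genes were the members, the listed genes, the neighbors within 300 kb, the 5 genes most alike each member and lineage genes used to check labels. Promoters were read from a RefSeq table (GRCm38.p6), and gene models from GENCODE M21. The settings varied were the pseudocount (0.1), the filter (none, or a mean of 0.1 FPKM), median scaling, quantile normalization, only the groups compared, no trend, the replicate block, the highest row per symbol, voom on implied fragments and each library left out. The neighbor counts under these settings were added after the data were seen.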

Additional observations from a re-analysis of the deposited data

Results flagged for a closer look

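The effect of culture relative to naive cells differed between effector groups for each of the 5 genes, by the test of the difference itself (limma, adjusted p under 0.05), with groups of 2 libraries. On the log2(FPKM + 1) scale, the rise from naive cells was larger in Th2 than in Th1 cells by 5.71 for *Il4*, 7.09 for *Il13*, 3.48 for *Il5*, 1.34 for *Rad50* and 1.64 for *Kif3a*. It was larger in Th2 than in Th17 cells by 4.24 for *Il4*, 3.85 for *Il13*, 3.30 for *Il5*, 1.36 for *Rad50* and 1.29 for *Kif3a*. It was larger in Th17 than in Th1 cells by 1.47 for *Il4*, 3.24 for *Il13* and 0.353 for *Kif3a*, the last of which lost its call when any 1 of the 4 Th1 and Th17 libraries was left out. The naive libraries cancel in these differences.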

How the results depend on the processing

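Over 30 differences of the members and 18 alternative settings, 508 of 540 values kept their direction and side of the threshold. These include every value of the 15 differences that involve Th2 cells, under all 18 settings. The other 32 values concern Th1 or Th17 cells against naive cells or against each other, and the cause was not tested. With a pseudocount of 0.1, *Il13* in Th1 against naive cells rose to 0.87 and *Il5* in Th17 against naive cells to 1.17, and both were called. The latter was also called at 0.21 with no filter, with a mean of at least 0.1 FPKM and with only the groups compared, and at 2.37 by voom. Quantile normalization turned *Il5* to -0.29 in Th1 and to -0.27 in Th17 against naive cells, neither called. The difference of *Il5* between Th1 and naive cells ranged from -0.022 (without replicate 1 of the naive cells) to 0.071 with each library left out. *Rad50* in Th1 against naive cells lost its call at 0.39 with no filter and with only the groups compared and at 0.34 by voom, and spanned 0.29 to 0.49 with each library left out. *Rad50* in Th17 against naive cells lost it at 0.37 with no filter and with only the groups compared, at 0.33 under median scaling and by voom and at 0.25 under quantile normalization, and spanned 0.27 to 0.47 with each library left out. *Rad50* in Th17 against Th1 cells, not called, ranged from -0.125 to 0.078, the latter without replicate 2 of the Th1 cells. *Kif3a* in Th17 against Th1 cells lost its call at 0.28 under median scaling, 0.22 under quantile normalization and 0.35 with only the groups compared, and spanned 0.33 to 0.38 with each library left out.

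The neighbors called lower in Th2 than in Th1 cells numbered 2 in place of 1 with no filter, with a mean of at least 0.1 FPKM, with the replicate block and without replicate 1 of the Th2 cells. Those lower than in Th17 cells numbered 1 in place of 0 with the replicate block and without replicate 1 of the Th2 cells. Same-numbered libraries share a number only: their replicate differences correlated at 0.138 to 0.294, the labels name no shared culture, and each comparison has 2 pairs. The replicate block changed no call of a member, with *Il4* at 6.82 in Th2 against naive cells. In the receptor and signaling list, calls in Th2 against Th17 cells rose from 2 to 5 with the replicate block, which added *Il2rg*, *Jak3* and *Stat5b*, and to 4 under median scaling, which added *Jak3* and *Stat5b*. Median scaling moved the median of all genes from -0.11 to 0.00157 in Th2 against naive cells and from -0.18 to -0.0245 in Th2 against Th17 cells. Genes called in Th2 against Th1 cells fell from 4961 to 3106 without replicate 2 of the Th1 cells and to 3208 without replicate 2 of the Th2 cells. In Th2 against Th17 cells they fell from 4885 to 3037 without replicate 2 of the Th2 cells and to 2738 without replicate 2 of the Th17 cells, and in Th17 against Th1 cells from 2815 to 1558 to 1734 when any 1 of their libraries was left out. Depth limits *Il13* and *Il5* in naive and Th1 cells, where at most 5 implied fragments per group were present.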
